A study of Mus musculus with 4 samples.

Results

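The Hox genes of palatal mesenchyme were examined in peak lists from ATAC-seq, an assay in which a transposase cuts and tags open DNA. Peaks of the 4 libraries that shared at least 1 bp were merged into 39843 regions, and a region was taken where its nearest protein-coding gene, within 100 kb of the gene's span, was 1 of 38 listed Hox genes. Only 7 regions met that rule, at 7 of the 38 genes, and 31 Hox genes had no region in any library. The cells were GFP-positive palatal mesenchyme, sorted from mouse embryos at E14.5, with 50000 cells pooled for each group. The 2 control libraries were Shox2Cre/+;Nkx2.5F/F;R26RmTmG and the 2 mutant libraries were Shox2Cre/-;Nkx2.5F/F;R26RmTmG. Cre stands at the Shox2 gene and switches on the green fluorescence of the R26RmTmG reporter, so the sort takes cells of the Shox2 lineage. The controls keep a single intact Shox2 allele, and both groups carry floxed alleles of Nkx2.5 that Cre can cut, so neither group is wild type. The labels title the controls WT. They do not give the number of embryos, so p-values measure only the spread between libraries, which may be technical.

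Hox genes encode homeodomain transcription factors that give cells their position along the body axis. They lie in 4 clusters, and genes at the anterior end of a cluster, with low paralogue numbers, are used earlier and further forward in the embryo than those at the posterior end. Neural crest cells of the first pharyngeal arch, which build most of the palatal mesenchyme, are known for keeping Hox genes silent, and silent Hox clusters are a classic target of Polycomb repression. Promoters rich in CpG dinucleotides usually have open chromatin.

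The sequences that bear on the finding are those of the tabulated starts that fell in a listed region, and of the most CpG-rich tabulated Hox start that did not. The RefSeq promoter table (GRCm38.p6, the build of mm10) held 24 promoters of 22 of the 38 genes, each as 250 bases before the start and 50 after it. The bases before the start are shown 5′ to 3′ on the gene's own strand, with each CpG in capitals. The first is that of Hoxd1, an anterior gene of the HoxD cluster (chr2:74762730-74762979, plus strand), all 250 bases of which lay under the peaks of control 1, mutant 1 and mutant 2. The next is that of Hoxd3os1, a non-coding RNA that runs antisense inside Hoxd3 (chr2:74716131-74716380, minus strand), of which 250 bases lay under the mutant 2 peak and the 143 nearest the start under the peaks of control 1 and mutant 1. The others are those of Hoxa10 (chr6:52240855-52241104, minus strand), of which 18 bases reached into a region of mutant 1 only, and of Hoxa13 (chr6:52260881-52261130, minus strand), over which no library listed a peak. Hoxa10 has another tabulated start, at 52234939, whose window had no peak in any library and is not shown.
Hoxd1: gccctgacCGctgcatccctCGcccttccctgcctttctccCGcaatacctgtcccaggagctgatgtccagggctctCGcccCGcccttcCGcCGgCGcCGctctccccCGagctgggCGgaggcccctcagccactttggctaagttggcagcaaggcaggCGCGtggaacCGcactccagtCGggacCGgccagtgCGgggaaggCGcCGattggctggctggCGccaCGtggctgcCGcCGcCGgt
Hoxd3os1: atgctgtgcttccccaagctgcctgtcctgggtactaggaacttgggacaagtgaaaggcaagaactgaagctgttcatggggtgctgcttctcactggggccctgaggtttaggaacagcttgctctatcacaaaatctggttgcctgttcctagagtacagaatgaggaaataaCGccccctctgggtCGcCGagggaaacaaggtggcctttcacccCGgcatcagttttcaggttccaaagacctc
Hoxa10: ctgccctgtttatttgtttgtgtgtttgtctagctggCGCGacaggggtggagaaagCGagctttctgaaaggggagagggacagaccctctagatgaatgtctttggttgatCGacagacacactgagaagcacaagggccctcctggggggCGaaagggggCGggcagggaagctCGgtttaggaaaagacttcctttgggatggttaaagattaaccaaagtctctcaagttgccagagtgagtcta
Hoxa13: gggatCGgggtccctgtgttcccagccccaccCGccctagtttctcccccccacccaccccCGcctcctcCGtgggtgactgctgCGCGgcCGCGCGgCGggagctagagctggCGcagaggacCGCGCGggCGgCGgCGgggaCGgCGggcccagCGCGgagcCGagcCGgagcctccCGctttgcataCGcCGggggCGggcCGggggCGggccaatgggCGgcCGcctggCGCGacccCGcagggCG
These stretches held 24 CpG at Hoxd1, 4 at Hoxd3os1, 7 at Hoxa10 and 35 at Hoxa13. The Hoxa13 stretch was 80% G and C, and that of Hoxd1 71.6%.

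Control 1 and control 2 listed 30239 and 22966 peaks, and mutant 1 and mutant 2 listed 29225 and 31832, so control 2 was the shortest list. The deposited peak numbers on chromosomes 1 to 19 and X ran to 96508 to 119397 per library, of which 23.8% to 27.8% were listed. Most numbered peaks were therefore left out by a step that neither the labels nor the files record, and a Hox gene with no listed peak is not shown to be closed. Among the palate mesenchyme markers, 16 of 17 genes had at least 1 region, and Msx1, Osr2, Alx1 and Twist1, transcription factor genes of that tissue, had a peak within 1 kb of a gene end in every library. Shox2, the targeted gene, had 3 regions, none in all 4 libraries, and no peak at an end, and peak calls do not check its deletion. Markers of other cell types had regions too, at 5 of 6 epithelial, 5 of 5 endothelial, 3 of 5 blood and 3 of 5 skeletal muscle genes. In all 4 libraries a peak lay at a gene end of 2 epithelial (Epcam, Cdh1), 1 endothelial (Kdr) and 1 blood (Spi1) marker, and of the neuronal genes Tubb3, Elavl4 and Isl1. Krt14, Gata1, Csf1r, Pax7, Myog, Elavl3 and Neurog1 had no region. The part of other cell types in the Hox values was not tested.

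Few Hox genes carried a listed peak. A region was assigned to 7 of 38 Hox genes (18.4%), against 68.1% of 21631 protein-coding genes. Hox genes are packed closely, so each is the nearest gene over a short stretch, and the 38 together over 766 kb. In that stretch there were 0.914 regions per 100 kb, against 1.87 per 100 kb over the stretches of all protein-coding genes. The clusters differed, with 1.59 per 100 kb at HoxA and 1.53 at HoxD, but 0.423 at HoxB and 0.73 at HoxC. Each of these rates rests on 1 or 2 regions. The count at gene ends does not depend on such stretches. A peak reached within 1 kb of either end of the gene in at least 1 library at 5 of 38 Hox genes (Hoxa3, Hoxa10, Hoxc10, Hoxc13 and Hoxd1), against 60.7% of all protein-coding genes. In all 4 libraries this held for 0 of 38 Hox genes, against 52.4% of all. That Hox count could only be 0, since control 2 had no such peak. Without control 2 it was 1 of 38 (Hoxd1), against 54.3% of all. Mutant 1 had such a peak at 4 Hox genes, control 1 at 2, mutant 2 at 1 and control 2 at 0. The shares over all genes ran only from 54.6% to 57.9%.

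**Figure D1:**
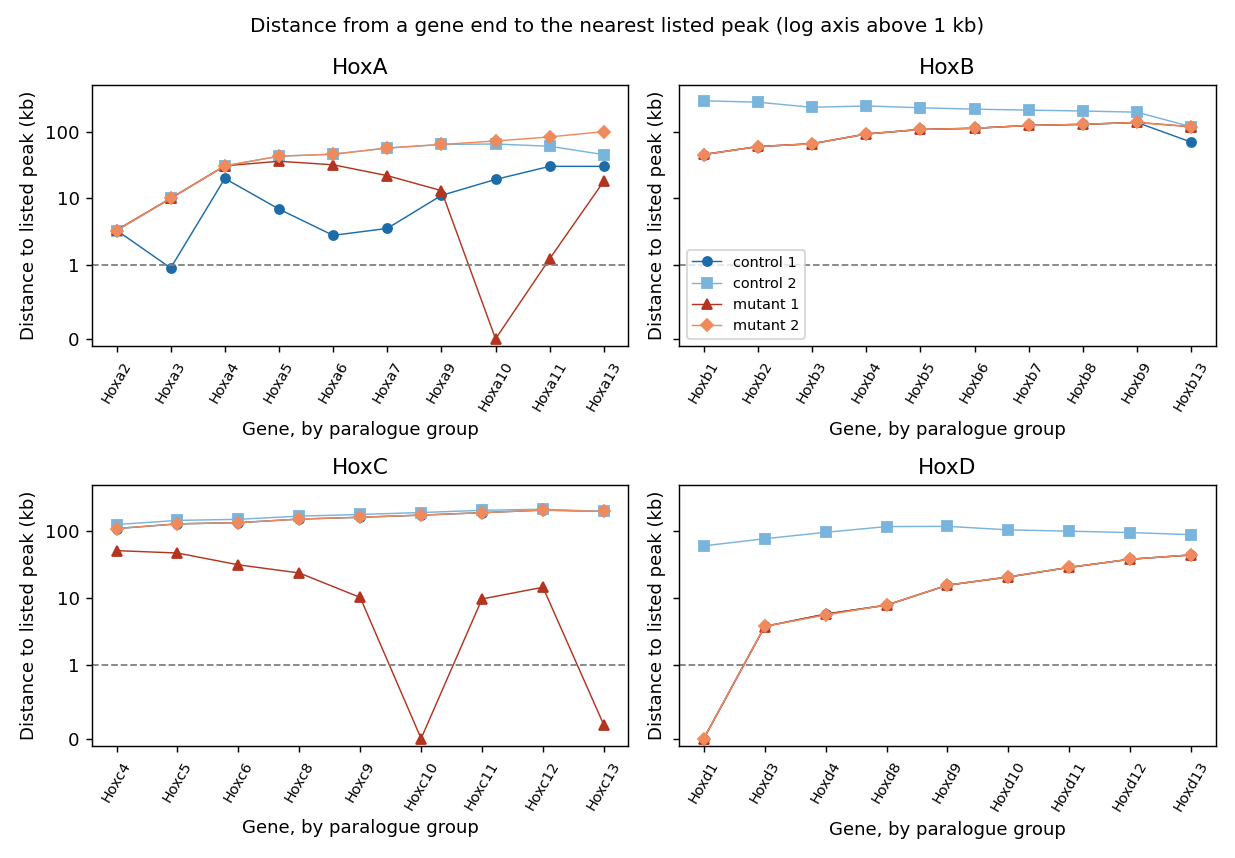
Distance in kb from either end of each of the 38 Hox genes to the nearest listed peak, by cluster, with genes in order of paralogue group, 1 line per library, and an axis that is logarithmic above 1 kb (dashed line). Points under the line are Hoxd1 in 3 libraries, Hoxa3 in control 1, and Hoxa10, Hoxc10 and Hoxc13 in mutant 1; where lines coincide, as for control 1 and both mutants at HoxD, the last one drawn hides the others.

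Distances show how far the empty stretches reached. The median distance from a Hox gene end to the nearest listed peak was 44.6 and 118 kb in the 2 controls, and 26.2 and 68.8 kb in mutant 1 and mutant 2. Over all protein-coding genes that median was 0 kb in control 1 and in both mutants and 0.114 kb in control 2. In HoxB, each of the 10 genes from Hoxb1 to Hoxb13 was 45.1 kb or more from a listed peak in every library. Its median was 99.4 kb in control 1, 222 kb in control 2, and 110 and 109 kb in the mutants. The 9 HoxC genes were 109.7 kb or more from a peak in control 1, control 2 and mutant 2, with medians of 162, 178 and 162 kb. Their median was 14.4 kb in mutant 1, which alone listed peaks within the cluster. The 9 HoxD genes had a median of 15.5 kb in control 1 and in both mutants, and of 96.4 kb in control 2. Hoxd13, a posterior gene of limb and hindgut patterning, was 44.1 kb from a peak in those 3 libraries and 88.9 kb in control 2. The 10 HoxA genes had a median of 8.92 kb in control 1, 45.3 kb in control 2, and 15.5 and 51.1 kb in the mutants. Distances run to any listed peak, whichever gene it is nearest to.

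The promoter windows gave the same picture with the start of the gene known, mostly for HoxA and HoxD. These clusters had 10 windows each, HoxB 3 and HoxC 1. Hoxc10 and Hoxc13, at which mutant 1 listed peaks, had no window. Of the 24 Hox promoters, control 1 and mutant 2 each had a peak over 1 (4.17%), mutant 1 over 2 (8.33%) and control 2 over 0. Over 21045 promoters of 17274 protein-coding genes the shares by library were 52.9% to 55.9%. Promoters with a peak in every library numbered 0 of 24 at Hox genes and 10675 over all (50.7%). The Hox count could only be 0, since control 2 had a peak over none of them. The Hox windows were close to the average in CpG content. They held 4 to 45 CpG, where the median over all was 13, and a median of 57.7% G and C, against 56.7%. By terciles of all promoters in CpG number, 4 Hox promoters fell in the lowest, 13 in the middle and 7 in the highest. Over all promoters of the middle and highest terciles, 64.4% and 86.4% had a peak in every library, and 75.9% and 94.6% in at least 1. The 7 Hox promoters in the highest were of Hoxa5, Hoxa6, Hoxa13, Hoxd1, Hoxd10, Hoxd11 and Hoxd13, and only that of Hoxd1 had a peak in any library. In the tercile with the least CpG, 5.67% had a peak in every library and 10.2% in at least 1, beside 2 of 24 Hox promoters (8.33%) in at least 1.

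**Figure D2:**
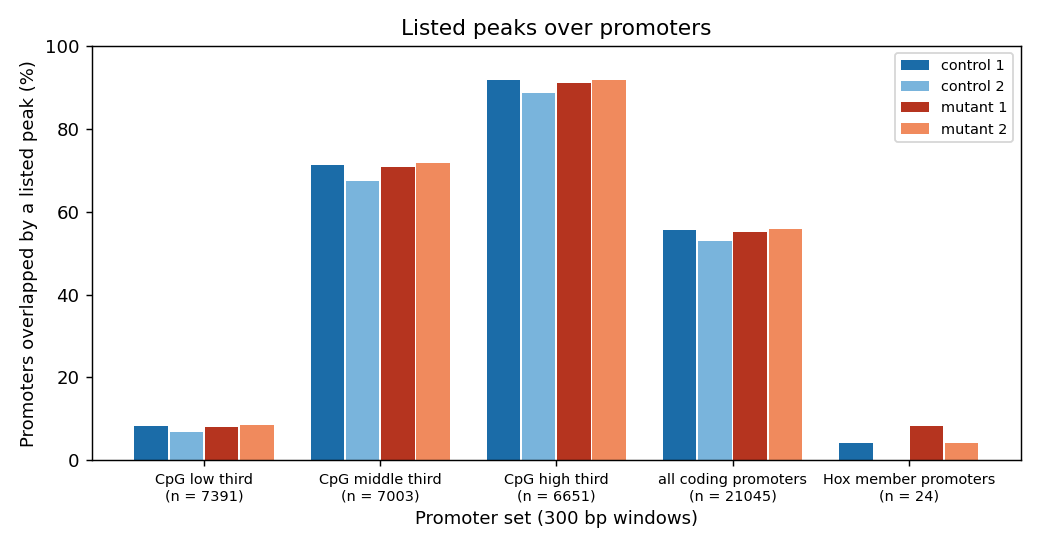
Percent of 300 bp promoter windows overlapped by a listed peak (vertical axis) in each of the 4 libraries (bars), for all protein-coding promoters, for terciles of them by CpG number, and for the 24 Hox promoters. Most of the Hox windows are of HoxA and HoxD. The Hox bars stand at 0 to 8.33%, near those of the tercile with the least CpG and under the 88.7% to 91.9% of the tercile with the most.

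The letters of the Hox promoters were searched on both strands for 6 short motifs, as a description only. AGGTCA, a single arm of the paired site of retinoid receptors, was in 7 of 24 Hox windows (29.2%), against 14.6% of all windows of the same length. TGATNNAT, a core that Hox and Pbx proteins share, was in 4 (16.7%), against 7.36%. TAATTA, a homeodomain core, was in 2, both of Hoxd11 (8.33%, against 4.47%). TATAAA, the TATA box, was in 4 (16.7%, against 12.7%), TGACAG, a Meis core, in 2 (8.33%, against 18.3%), and GGGCGG, the GC box, in 10 (41.7%, against 46.7%). The motifs were counted independently, so a stretch of letters may count under more than 1. The Hoxd1 window, the only one under a peak in 3 libraries, held 2 matches of GGGCGG and 0 of the other 5. Hoxa10's window under the mutant 1 peak held the same 2 and 0.

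The 7 regions fell unevenly over the gene order. Anterior genes, of paralogue groups 1 to 3, had 4 regions at 4 of 7 genes (Hoxa3, Hoxb1, Hoxd1 and Hoxd3), 3 of which were held by 3 libraries. Central genes, of groups 4 to 8, had 0 regions at 15 genes, Hoxa5, Hoxb4 and Hoxc6 among them. Posterior genes, of groups 9 to 13, had 3 regions at 3 of 16 genes (Hoxa10, Hoxc10 and Hoxc13), each in mutant 1 alone. The split between anterior and central genes depends on the tabulated gene spans. That of Hoxa3 also holds Hoxa4, Hoxa5 and Hoxa6, and that of Hoxd3 holds Hoxd4. The Hoxa3 region lay 2.76 kb from Hoxa6 and 3.51 kb from Hoxa7, and the Hoxd3 region 5.5 to 5.7 kb from Hoxd4. By cluster, HoxA, HoxC and HoxD had 2 regions each and HoxB 1. By position, 4 of the 7 regions had their midpoint within 1 kb of an end of their gene (57.1% by count, against 32.9% of all regions with a gene), 2 lay inside a gene and 1 lay outside. With 7 regions these differences between classes carry no test.

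The Hoxd1 region (chr2:74762672-74763760) covered the start of the gene, and overlapped Haglr, a non-coding RNA gene of the HoxD cluster. Hoxd1 works in sensory neurons and early patterning and is the most anterior gene of its cluster. Its peak summits lay 41 bp before the start in control 1, 16 bp before it in mutant 1 and 135 bp after it in mutant 2. The authors' fold enrichment was 6.38 in control 1, 5.10 in mutant 1 and 4.72 in mutant 2, and control 2 listed no peak. To compare libraries, each peak was placed among all peaks of its list by −log10 p and given a percentile, with high values for strong peaks. At Hoxd1 it was 31.9, 17.2 and 13.7 in the same order, so control 1 was the highest and both mutants were below it.

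The Hoxd3 region (chr2:74715706-74716453) lay inside Hoxd3 (74711993 to 74748271), a gene of axial patterning, and over the start of Hoxd3os1. Its fold enrichment was 5.12 in control 1, 5.18 in mutant 1 and 6.17 in mutant 2. Its percentiles were 16.1, 22.5 and 30.9, and again control 2 listed no peak. Here both mutants ranked above control 1, the opposite order to Hoxd1 in the same cluster and the same libraries. The summits of the 3 libraries fell within 107 bp of each other.

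The third region in 3 libraries lay 45.1 kb outside Hoxb1 (chr11:96413312-96414424), the HoxB gene of the fourth rhombomere, and was the only region outside a gene. Its fold enrichment was 7.43 in control 1, 5.48 in mutant 1 and 6.48 in mutant 2, and its percentiles were 41.8, 16.8 and 33.2. The value in control 1 was the highest percentile of all 13 peaks at Hox genes. The summits fell within 162 bp of each other. Of these 3 regions, then, 1 ranked higher in both mutants than in control 1 and 2 ranked lower. Among all 22258 regions that these 3 libraries share, 34.1% ranked higher and 32.1% lower, so both directions were common.

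The other 4 regions were each listed by a single library. Their percentiles, 2.34 to 17.5, were around the medians of all regions listed by control 1 alone (11.1) and by mutant 1 alone (9.92). The Hoxa3 region (chr6:52211435-52212111), in the span of a gene of pharyngeal arch and thymus development and of the antisense gene Hoxaas3, was in control 1 with a percentile of 17.5 and a fold enrichment of 5.52. The Hoxc13 region (chr15:102921314-102922387), at a gene known for hair and nail growth, was in mutant 1 with a percentile of 11.2 and a fold enrichment of 4.82. The Hoxa10 region (chr6:52240334-52240872), at a gene of uterine and posterior axial patterning, was in mutant 1 at 4.28 and 4.57-fold. The Hoxc10 region (chr15:102966342-102966882), at a gene of hindlimb and lumbar patterning, was in mutant 1 at 2.34 and 4.63-fold. All 3 of the mutant 1 regions lay at the 5′ end of their gene, where for Hoxc10 and Hoxc13 the strand is taken from Hoxc4, the only HoxC gene in the promoter table.

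**Figure D3:**
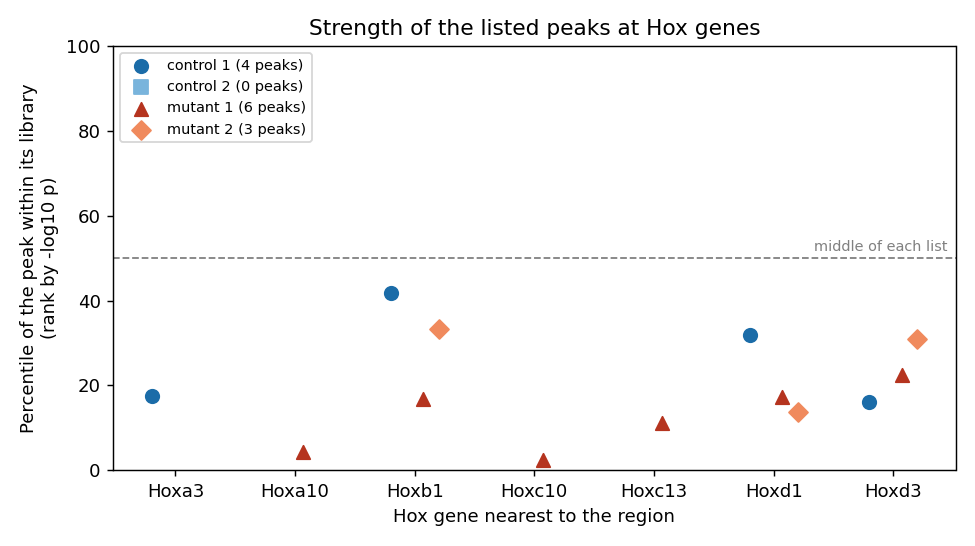
Percentile of each listed peak within its own library (vertical axis, rank by −log10 p) for the 7 Hox regions (horizontal axis), with 1 symbol per library. All 13 peaks lie under the middle of their list (dashed line), from 2.34 to 41.8, and control 2 has none.

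Peaks at Hox genes were weak throughout. The 13 peaks had a median percentile of 17.2, and 0 of 13 lay in the upper 50% of their list. Median fold enrichments of Hox peaks against all peaks of the same library were 5.95 against 6.86 in control 1, 4.96 against 6.48 in mutant 1 and 6.17 against 6.61 in mutant 2. Regions of the same library pattern were about as weak. Over all 3345 regions held by control 1, mutant 1 and mutant 2 only, the middle 50% of percentiles ran from 17.9 to 41.7 in control 1, 17.7 to 41.2 in mutant 1 and 21.7 to 45.7 in mutant 2. Of the 9 Hox values of that pattern, 4 lay within those ranges, 1 just above (Hoxb1 in control 1) and 4 below.

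No Hox region was listed by both libraries of one genotype and neither of the other. Regions held by both controls and no mutant numbered 0 of 7 (background 1.07% of all regions), and regions held by both mutants and no control 0 of 7 (background 4.47%). The first count, and that of regions in all 4 libraries, could only be 0, since control 2 listed no Hox peak. With 7 regions, 0 is not distinct from the background share of the second. Hox regions held by all 4 libraries numbered 0 (47.4% of all regions), by control 1 and both mutants 3 (8.40%), by mutant 1 alone 3 (5.77%) and by control 1 alone 1 (7.26%). In all, 4 of 7 were held by exactly 1 library, against 23.9% of all regions. Control 2, the library with no Hox peak, also had the fewest peaks, so the lists were also compared at equal length. That cut takes the weakest peaks from the longer lists, and Hox peaks were weak. It therefore does not isolate the effect of list length. With the 22959 strongest peaks of each library, 3 Hox regions were left, Hoxb1 in control 1 and mutant 2, Hoxd3 in both mutants and no control, and Hoxd1 in control 1. Among the upper 50% of each list, none was left. Hox peaks per 10000 listed peaks numbered 1.32 in control 1 and 0 in control 2, beside 2.05 and 0.943 for the mutants. Mutants exceeded controls by 0.837 per 10000, less than the spread between libraries of a genotype (exact two-sided permutation p = 0.667; 2 against 2 libraries cannot go under 1 in 3). Median percentiles of Hox peaks were 24.7 in control 1, 14.0 in mutant 1 and 30.9 in mutant 2, and with no Hox peak in control 2 they could not be tested between genotypes.

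Strength was then compared between clusters and between positions within each library. Of the 6 pairs of clusters, 3 could be compared in several libraries and 3, those with HoxC, in mutant 1 only. The HoxD median minus the HoxB value was −17.8 percentiles in control 1, 2.98 in mutant 1 and −10.9 in mutant 2, a mean of −8.59. HoxA minus HoxB averaged −18.5 over control 1 and mutant 1, and HoxA minus HoxD −11.1 over the same libraries. Each of these had an exact sign-flip p of 0.50, also after Benjamini-Hochberg adjustment, which for pairs in 2 libraries is the smallest possible. The median of gene-end regions minus the Hoxb1 region outside genes was −9.95, −9.09 and −19.5 percentiles in control 1, mutant 1 and mutant 2, but 3 libraries cannot give an exact sign-flip p under 0.25, which was the value. Against all other Hox regions, inside or outside genes, the same difference was 14.4, −11.9 and −18.3 percentiles (exact sign-flip p = 0.75).

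The Hox stretches were not empty of numbered peaks. Between the last listed peak before a cluster and the first one after it, the deposited peak numbers tell how many peaks were numbered and then left out. Summed over the 4 clusters, 73 peaks were numbered in control 1 and 3 of them listed (4.11%), 71 and 0 in control 2, 78 and 5 in mutant 1 (6.41%) and 94 and 2 in mutant 2 (2.13%). Over the whole genome the listed share was 27.9%, 23.8%, 25.8% and 26.7%. Numbered peaks, listed or not, came to 6.70, 4.63, 6.76 and 7.28 per 100 kb in these stretches, against 4.24, 3.77, 4.43 and 4.66 per 100 kb over the genome. Summed over clusters, numbered peaks were thus no fewer per length than over the genome, while their listed share was lower. Such stretches are long gaps by construction, so other long gaps are the closer comparison. Unlisted peaks came to 6.42, 4.63, 6.33 and 7.13 per 100 kb at the clusters, and over all gaps of at least 100 kb the medians were 2.91 to 3.40. The 90th percentiles of those gaps were 6.68, 6.29, 6.91 and 7.07 in the same order, passed by mutant 2 only. The cluster rates pool 4 clusters, while the gap values are of single gaps. Taken singly, the cluster rates ran from 2.85 (HoxB in control 2) to 8.94 (HoxD in mutant 2). Peaks that were left out have no position or strength in the files, and why they were left out was not tested.

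**Figure D4:**
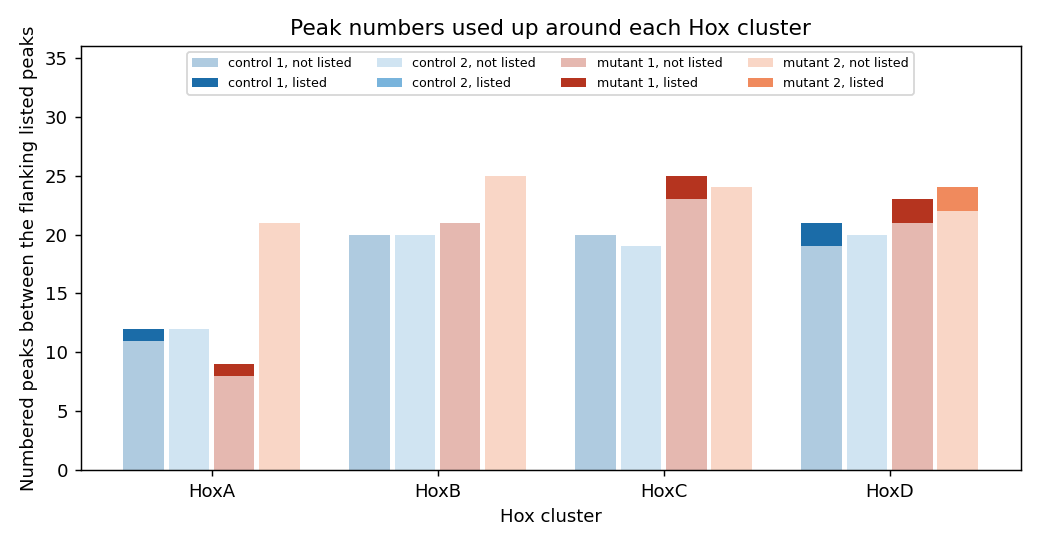
Number of peaks (vertical axis) that the deposited numbering counts between the listed peaks on either side of each Hox cluster, by library, with listed peaks as the dark part of a bar and those left out as the pale part. Each bar holds 9 to 25 numbered peaks, of which 0 to 2 are listed; the stretches differ in length, from 132 to 701 kb, because the flanking peaks differ between libraries.

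HoxD gave the clearest comparison, since the same flanking peaks bound it in every library, 246 kb apart. The controls had 21 and 20 numbered peaks and the mutants 23 and 24, of which 2 were listed in each library but control 2, which listed 0. Within HoxD, the 6 genes from Hoxd13 to Hoxd8 lay in a gap of 136 kb with 13, 14 and 16 unlisted peaks in control 1, mutant 1 and mutant 2. The gap from the Hoxd3 region to the Hoxd1 region, which holds Hoxd4, had 5, 4 and 3. In control 2 the whole cluster lay in a single gap with 20 unlisted peaks. At HoxC, 20, 19 and 24 peaks were numbered and none listed in control 1, control 2 and mutant 2, against 25 numbered and 2 listed in mutant 1. At HoxB, 20, 20, 21 and 25 were numbered and none listed, since the region outside Hoxb1 forms the edge of the stretch in 3 libraries.

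Peaks of the genes beside the clusters ranged from strong ones at some gene ends to weak ones. HoxD stands between Lnpk and Mtx2, genes that lie beside it and outside the Hox family. The Lnpk end had percentiles of 91.0 and 92.1 in control 1 and control 2, then 90.9 and 93.5 in the mutants, and the Mtx2 end had 60.9, 58.1, 69.4 and 69.1 in the same order. Calcoco1, next to HoxC, had 93.3, 93.8, 90.3 and 93.0 at its end. Skap2, beside HoxA, had 74.8, 63.3, 81.1 and 77.5. Other neighbours were weak or empty. Skap1, beside HoxB, had 4 regions, each in a single library, at percentiles of 0.684 to 12.3, and no peak at an end. Smug1, beside HoxC, had a peak inside the gene at 47.9 to 66.8 in all 4 libraries, and a peak at its end in mutant 2 only, at 9.97. Evx2, a homeobox gene between HoxD and Lnpk, had no region, and Evx1, its counterpart beside HoxA, had 3 regions outside the gene at 7.71 to 38.5 and no peak at an end. Over the 10 neighbours, 8 regions in all 4 libraries ranked at 22.8 to 93.8 and the 21 others at 0.170 to 50.8. Of the 10 neighbours, 9 had a region and 6 had a peak at a gene end in all 4 libraries.

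Other genes of the Hox system were placed on the same scale. The TALE cofactors of Hox proteins (Meis, Pbx and Pknox genes) had a region at 9 of 9 genes, and a peak at a gene end in all libraries at 7 of 9. For the Polycomb and trithorax regulators, which keep Hox clusters silent or active, those counts were 20 and 19 of 21. Ezh2, the Polycomb methyltransferase gene, had a region in all libraries whose lowest percentile was 93.9. Genes of retinoic acid synthesis, breakdown and reception, which feeds into anterior Hox genes, had a region at 11 of 11 and a peak at an end in all libraries at 2 of 11 (Rxra and Rxrb). The ParaHox genes, relatives of the Hox genes outside the clusters, had a region at 4 of 6 and such a peak at 1 of 6, Gsx1, while Cdx1 and Pdx1 had none. The Hox genes, with 7 and 0 of 38, stood below each of these lists in both counts. For Hox genes the second count could only be 0, since control 2 listed no peak at an end of any. The lists are small and no test was made between them.

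**Figure D5:**
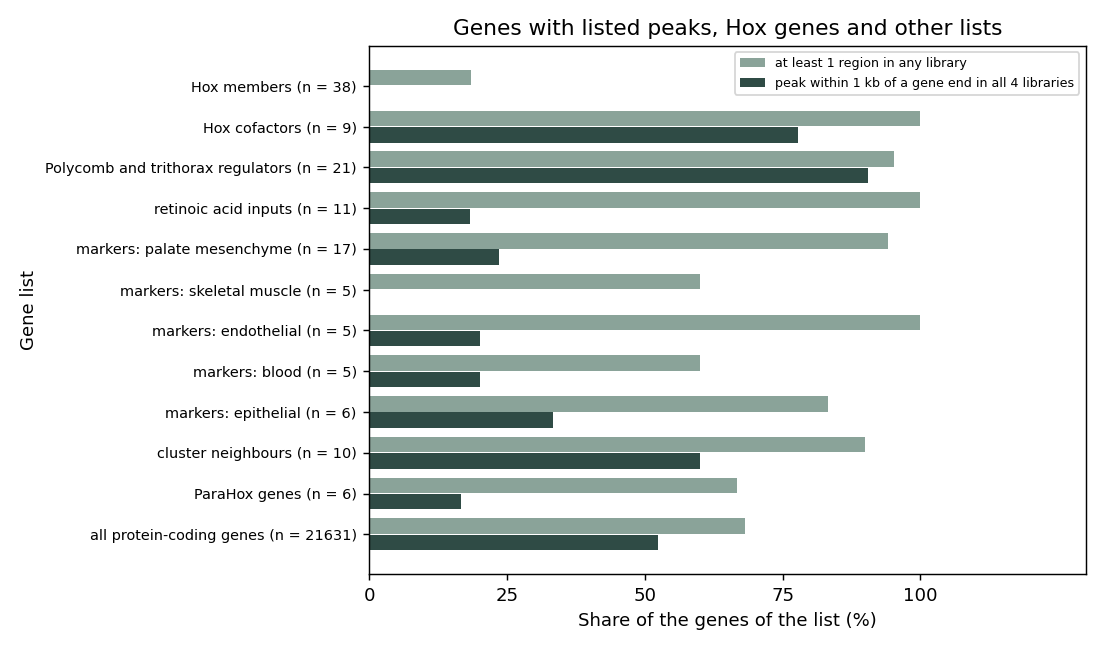
Percent of the genes of each list (horizontal axis) that had at least 1 region in any library (pale bars) or a peak within 1 kb of a gene end in all 4 libraries (dark bars), with the number of genes in brackets. Hox members stand at 18.4% and 0%, against 68.1% and 52.4% of all protein-coding genes; the 5 skeletal muscle markers are the other list at 0% in the second count.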

How the data were processed

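ATAC-seq peaks of 2 control and 2 mutant libraries of sorted palatal mesenchyme were analysed as the authors deposited them, 1 list per library without a header, with mm10 coordinates, per the submitters' processing notes. The authors' aligner, peak caller, offset shift and filters were not given in the sources used here. By place in the narrowPeak layout of the deposited files, the columns hold a score (the whole part of 10 times −log10 p in nearly all rows), a fold enrichment ratio, a −log10 p-value, a −log10 q-value and a summit offset. The authors' values belong to single peaks and served to rank or describe peaks within a library. The deposited lists hold no read counts, so depth is unknown and no counting error can be given.

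Merging and assignment, on chromosomes 1 to 19 and X, used Python 3.11.15 and pandas 2.3.3, with a gene table (GRCm38.p6) that gives no strand, exons or introns. Ties between overlapping genes went to the gene with an end nearest the midpoint. A region's position class uses its midpoint, and a gene's count of peaks at its ends uses the edge of the peak. Groups came from sample titles. With 2 against 2 libraries an exact permutation test cannot give a p under 1 in 3. Merging and assignment were tested on 2000 simulated regions, and all 6 steps recovered the known answers. Members, gene lists and motifs were chosen with earlier results of these data known. All 38 genes may be named, with full values for the regions that the naming rule reaches, which here were all 7. Alternatives were 50% overlap in merging, the upper 50% of lists, equal list lengths, a 20 kb assignment distance, ranks by fold enrichment, a 500 bp end window, each library left out, starts only, and the replicate block. Peaks on chromosome Y were left out, and counts over the neuronal and Schwann marker lists are not reported here.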

Additional observations from a re-analysis of the deposited data

How the results depend on the processing

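Requiring 50% overlap or a distance of 20 kb left 7 and 6 Hox regions. The upper 50% of lists left 0 and equal lists 3 of the 7, with 1 Hox region in mutants only at equal lists. Without each library in turn, Hox regions numbered 4 to 7 (4 without mutant 1), those in every library used 0 to 3 (3 without control 2), those of controls only 0 to 1 (1 without control 2), those of mutants only 0 to 3 (3 without control 1 or mutant 2), shared regions ranked higher in mutants 0 to 1 and in controls 0 to 2 (highest without control 2), and genes with a peak at an end in every library used 0 to 1 (Hoxd1, without control 2, against 54.3% of all genes). Leaving out a library redefines these sets. The mutant excess of Hox peaks per 10000 was 0 in the upper 50%, 0.218 at equal lists, and 0.175 to 1.498 with a library left out, the lowest without control 2. The median percentile in mutants minus control 1 was −2.23, −13.3 at equal lists, 6.19 without mutant 1 and −10.6 without mutant 2, and the cause was not tested. The fit by starts only and the replicate block of the peak rate were chosen after seeing the data. In the replicate block the excess was 0.837 (exact sign-flip p = 0.50, the smallest 2 pairs allow). Whether same-numbered libraries share more than a number was not tested. Their percentile deviations correlated at −0.0314 over 18904 regions, and such a correlation cannot show how libraries were prepared. The planned blocks of percentiles and of shared regions could not be made, since control 2 has no Hox peak, and without control 1 no percentile difference exists. The HoxD minus HoxB difference stayed between −3.97 and −19.3 and that of gene-end minus outside regions between −9.52 and −22.8 under the alternatives run, none with a sign-flip p under 0.25. Read depth, unknown here, limits every missing call.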
